A study of Homo sapiens with 6 samples.

Results

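Ribosomal DNA transcription factors and treacle form a group of 9 genes in these data. They were chosen by symbol for their known role, and all 9 were among the 25662 gene symbols of the table: UBTF, the SL1 subunits TAF1A, TAF1B, TAF1C, TAF1D and TBP, then RRN3, TTF1 and TCOF1. Transcripts were sequenced from HCT116, an established human colorectal carcinoma line. Cells kept with BMH-21 at 1 µM for 24 h gave 3 libraries, and control cells gave 3 more. BMH-21 is a small molecule that intercalates in DNA and blocks RNA polymerase I. The labels' protocols describe DMSO for controls while their titles read 0 h, so drug and time in culture cannot be told apart if controls were harvested at 0 h.

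RNA polymerase I makes the precursor of the ribosomal RNAs from the repeated ribosomal DNA (rDNA) in the nucleolus. UBF, the product of UBTF, coats the active repeats, and SL1, a complex of TBP with TAF1A to TAF1D, recognises the promoter. The polymerase is brought in by RRN3, which docks it to SL1, and TTF1 binds terminator elements at the ends of the repeat. Treacle, encoded by TCOF1, is a nucleolar scaffold that binds UBF and the polymerase and is mutated in Treacher Collins syndrome. The levels of the messenger RNAs for these proteins were compared between BMH-21 and control cells. The products of RNA polymerase I were not analysed here.

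Values are TPM, the share of a library's transcripts on a fixed total after division by transcript length, so levels of different genes can be set side by side. Sequencing depth is unknown, and total RNA per cell is not visible on this scale. The libraries held 11509 to 12001 genes at 1 TPM or more, and mitochondrial-encoded transcripts took 20.3% to 26.1% of TPM. BMH-21 replicate 3 (26.1%) and control replicate 1 (25.8%) had the largest mitochondrial shares, against 20.3% to 21.6% in the other libraries, and were also farthest from their group means. All 6 epithelial or colorectal markers were present in every library, with a summed level of 11423 to 13010 TPM in BMH-21 cells and 5143 to 5377 TPM in controls, most of it from KRT8, KRT18 and KRT19. The summed level of 6 markers of other cell types was 2.02 to 3.40 TPM in BMH-21 cells and 3.85 to 4.97 TPM in controls. PTPRC, a further marker, was not among the deposited gene symbols. Of the 6, CD3E, COL3A1 and ALB were at 0 in every BMH-21 library, and most of the sum was COL1A1. The p53 target CDKN1A, a marker of the drug response, had 2285 to 2380 TPM after BMH-21 and 214 to 234 TPM in controls. The replicates are called biological in the design text.

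Promoter sequences are shown for UBTF, which fell, and for RRN3, TAF1C and TAF1D, whose 3 BMH-21 libraries all lay above the 3 control libraries. Each stretch runs 5′ to 3′ on the gene's strand, from 200 bases before a RefSeq transcription start to 25 bases after it (GRCh38.p14). Capitals mark the ETS family core CCGGAAG and the GC box GGGCGG, each searched on both strands. The stretches are chr17:44220858-44221082, chr16:15094248-15094472, chr16:84187033-84187257 and chr11:93741471-93741695, all on the minus strand. For UBTF and RRN3, 1 of 2 annotated starts is shown.
UBTF: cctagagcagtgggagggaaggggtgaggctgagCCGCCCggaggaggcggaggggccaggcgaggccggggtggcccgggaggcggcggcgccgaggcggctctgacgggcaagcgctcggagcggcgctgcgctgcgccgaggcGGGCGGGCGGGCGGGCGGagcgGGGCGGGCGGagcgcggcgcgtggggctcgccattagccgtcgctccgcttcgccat
RRN3: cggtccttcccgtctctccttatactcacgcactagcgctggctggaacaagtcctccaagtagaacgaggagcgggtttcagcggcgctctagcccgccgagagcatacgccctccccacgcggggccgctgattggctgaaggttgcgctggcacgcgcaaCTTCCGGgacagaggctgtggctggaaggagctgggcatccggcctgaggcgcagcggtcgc
TAF1C: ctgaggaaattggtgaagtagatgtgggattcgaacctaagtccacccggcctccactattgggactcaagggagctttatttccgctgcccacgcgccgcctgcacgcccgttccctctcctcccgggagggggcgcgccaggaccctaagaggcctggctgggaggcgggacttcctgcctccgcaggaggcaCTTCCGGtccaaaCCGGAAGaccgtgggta
TAF1D: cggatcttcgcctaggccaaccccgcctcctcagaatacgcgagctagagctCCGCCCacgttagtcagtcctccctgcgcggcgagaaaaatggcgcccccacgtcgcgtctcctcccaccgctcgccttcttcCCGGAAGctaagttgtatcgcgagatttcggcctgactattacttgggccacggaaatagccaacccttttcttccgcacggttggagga
UBTF held 7 GC boxes, some of which share letters, and no ETS core in its stretch, of which 80.4% was G or C. RRN3 held 1 ETS core, TAF1C 2, and TAF1D 1 beside 1 GC box, and no ETS core overlapped a GC box.

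Across whole windows of 300 bases (250 before and 50 after the start), all of the 9 genes but TCOF1 matched the RefSeq table by symbol, 8 in all, some with more than 1 start. The ETS core was present for 6 of the 8, namely RRN3, TAF1A, TAF1B, TAF1C, TAF1D and TTF1. It was present for 12.2% of all 27305 genes with a window, and for 23.3% of the 9455 of them that were tested for expression. The GC box was found for UBTF, TAF1D and TBP, against 79.1% of the genes tested. CCAAT was found for 5 of the 8, against 43.3%, and TTTNNCGC (E2F) for TAF1D alone, against 13.1%. TTTGAA (CHR) was found for TAF1A alone, against 12.7%. Neither the E-box CACGTG nor TATAAA was found in any of their windows, against 13.0% and 7.67% of genes tested. Matches of different motifs were not checked for overlap in the whole windows, and a match is a description of letters, not of a bound site.

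BMH-21 cells had less UBTF and TCOF1 messenger RNA, while the promoter selectivity subunits, RRN3 and TTF1 did not pass the test. Of the 9 genes, 2 were lower and 0 were higher at an adjusted p under 0.05, by limma on log2(TPM + 1) with Benjamini-Hochberg adjustment over 12041 genes. At an unadjusted p under 0.05, RRN3, TAF1C and TAF1D were higher as well, 3 of 9, where 25.5% of all genes were higher by the same measure. Among all genes tested 36.4% were called, 19.4% as higher and 16.9% as lower, so the share of these genes called was not above that of all genes. The median log2 fold change was -0.03 for the 9 genes and 0.06 for all genes tested. The groups did not overlap for 5 of the 9, against 51.5% of all genes, with 3 above control (29.6% of all genes) and 2 below (22.0%).

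**Figure D1:**
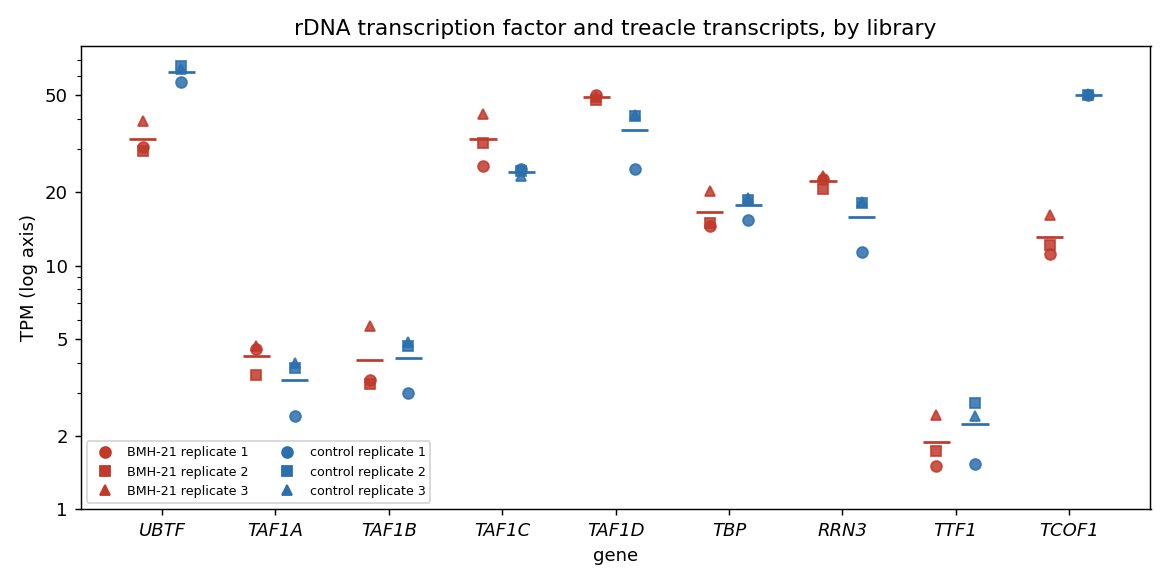
TPM of each gene in each library on a log axis, with BMH-21 libraries (red) left of control libraries (blue), 1 symbol per replicate and a line at the group mean. The 3 BMH-21 libraries of UBTF and of TCOF1 lie below all control libraries, and those of TAF1C, TAF1D and RRN3 lie above them.

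UBTF encodes the HMG-box protein that keeps active rDNA repeats open. Its level was 30.8, 29.5 and 39.3 TPM in BMH-21 replicates 1 to 3, against 56.6, 66.0 and 64.0 TPM in control replicates 1 to 3. Every BMH-21 library was below every control library. Mean levels were 33.2 ± 5.33 TPM after BMH-21 and 62.2 ± 4.93 TPM in controls (SD, n = 3 each), a 1.87-fold lower mean. On the log2 scale this was -0.89, with a 95% interval of -1.17 to -0.61 (limma adjusted p = 0.00069). Of all genes tested, 6.15% had a lower log2 fold change. The gene spans 16.6 kb on chromosome 17 (44205033 to 44221626, minus strand), and the longest coding transcript has 21 exons. In whole cultures like these, fewer cells making a transcript and less of it per cell cannot be told apart. Splice forms of UBTF, which give proteins of different activity, are summed in the value.

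TCOF1 changed most among the 9. Its level was 11.2, 12.2 and 16.1 TPM in BMH-21 replicates 1 to 3, against 50.2, 49.9 and 50.6 TPM in control replicates 1 to 3. The control libraries lay within 1 TPM of each other, and the highest BMH-21 library was far below them. Mean levels were 13.2 ± 2.61 TPM after BMH-21 and 50.3 ± 0.37 TPM in controls (SD, n = 3 each), a 3.82-fold lower mean. The log2 fold change was -1.87, with a 95% interval of -2.18 to -1.57 (limma adjusted p = 1.45e-05). Only 1.89% of genes tested had a lower one. TCOF1 lies on chromosome 5 (150357629 to 150400308, plus strand) and has 27 exons in its longest coding transcript. No 31-base stretch of that transcript occurs exactly in an annotated transcript of another gene. Diverged or unannotated copies and the other transcripts of TCOF1 were not checked.

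The 4 TAF subunits of SL1 were spread from low to high. TAF1D, which also hosts small nucleolar RNAs in its introns, was at 50.1, 47.6 and 49.3 TPM in BMH-21 replicates 1 to 3, against 24.999, 41.2 and 41.7 TPM in control replicates 1 to 3. TAF1C, the largest of the 4 and a contact of RRN3, was at 25.6, 31.7 and 41.9 TPM in BMH-21 replicates 1 to 3, against 24.9, 24.3 and 23.4 TPM in control replicates 1 to 3. For both genes every BMH-21 library was above every control library, but neither passed the test. The log2 fold change of TAF1D was 0.47 with a 95% interval of 0.06 to 0.88 (limma adjusted p = 0.069). For TAF1C it was 0.41 with an interval of 0.04 to 0.78 (limma adjusted p = 0.079). In TAF1D the spread came from control replicate 1, without which its log2 fold change was 0.24 (adjusted p = 0.064). In TAF1C it came from the BMH-21 libraries, and without BMH-21 replicate 3 the value was 0.23 (adjusted p = 0.13).

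The other SL1 subunits were at lower levels and overlapped between groups. TAF1A had 4.55, 3.54 and 4.68 TPM in BMH-21 replicates 1 to 3, against 2.41, 3.79 and 3.99 TPM in control replicates 1 to 3. TAF1B, which resembles the general factor TFIIB, had 3.40, 3.27 and 5.64 TPM in BMH-21 replicates 1 to 3, against 2.997, 4.69 and 4.88 TPM in control replicates 1 to 3. Their log2 fold changes were 0.27 (95% interval -0.18 to 0.72) and -0.03 (-0.56 to 0.50), and both intervals included 0. TBP, which also serves RNA polymerases II and III, had 14.5, 14.9 and 20.1 TPM in BMH-21 replicates 1 to 3, against 15.4, 18.6 and 19.0 TPM in control replicates 1 to 3. Its log2 fold change was -0.10 (95% interval -0.45 to 0.25, limma adjusted p = 0.64).

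RRN3, the initiation factor that makes the polymerase competent to start, had 22.6, 20.6 and 23.3 TPM in BMH-21 replicates 1 to 3, against 11.3, 18.0 and 18.3 TPM in control replicates 1 to 3. Every BMH-21 library was above every control library, and control replicate 1 was the lowest. The log2 fold change of 0.49 had a 95% interval of 0.08 to 0.89 and missed the threshold (limma adjusted p = 0.062). It passed under scaling by trimmed means of log ratios (0.43, adjusted p = 0.036), with medians of ratios (0.43, adjusted p = 0.036) and with quantile normalization (0.46, adjusted p = 0.026), but in 11 of the 16 alternatives it did not pass. With no filter on low values the adjusted p was 0.13, and without BMH-21 replicate 1 it was 0.14. Without control replicate 1 the log2 fold change was 0.27 (adjusted p = 0.093), and over all 16 alternatives it ran from 0.24 to 0.60. RRN3 has near copies: 31.6% of the 31-base stretches of its longest coding transcript also occur in annotated transcripts of other genes. The largest shares were 27.5% with AC009093.9, 26.8% with RRN3P2 and 20.7% with RRN3P1. No level was taken for AC009093.9, and RRN3P1 was not among the deposited gene symbols. The copy RRN3P2 was at 0 to 0.024 TPM after BMH-21 and 0.026 to 0.071 TPM in controls. RRN3P3 was at 1.00 to 2.04 TPM after BMH-21 and 0.56 to 0.68 TPM in controls, higher in every BMH-21 library. How reads were divided among these copies is uncertain. PDXDC1, which overlaps RRN3 on the other strand, had 28.5 to 48.0 TPM after BMH-21 and 36.3 to 47.0 TPM in controls.

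TTF1, the transcription termination factor of RNA polymerase I, was the least abundant of the 9 in both groups. It had 1.51, 1.73 and 2.45 TPM in BMH-21 replicates 1 to 3, against 1.53, 2.74 and 2.42 TPM in control replicates 1 to 3. The groups overlapped, and the log2 fold change of -0.15 had a 95% interval of -0.61 to 0.31 (limma adjusted p = 0.59). This gene on chromosome 9 is not NKX2-1, whose protein carries the same abbreviation and which has a row of its own.

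**Figure D2:**
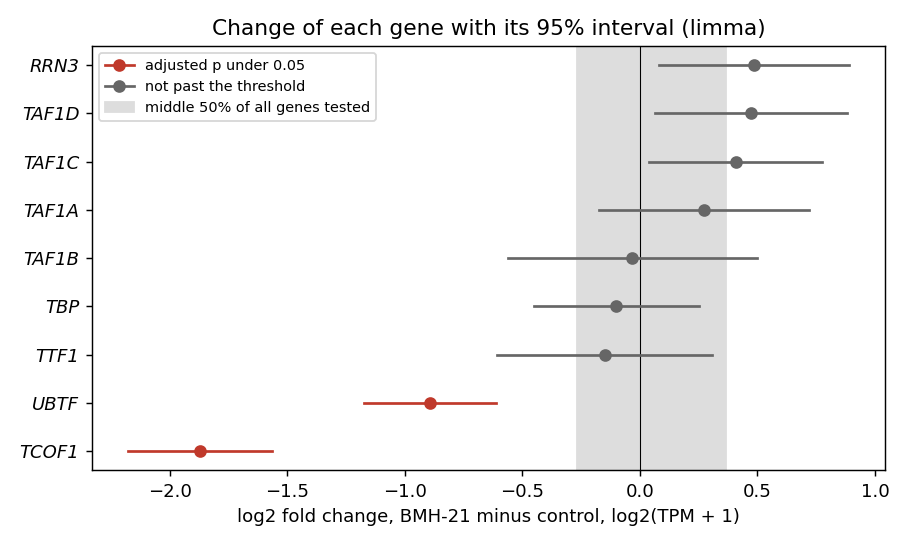
Log2 fold change of each gene on the log2(TPM + 1) scale, BMH-21 minus control, with its 95% interval from limma, and a grey band for the middle 50% of all 12041 genes tested (-0.27 to 0.37). TCOF1 and UBTF are the genes with an adjusted p under 0.05, and RRN3, TAF1D and TAF1C have intervals above 0 that did not pass after adjustment.

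The order of the mean levels differed between the groups. After BMH-21, TAF1D was first at 49.0 TPM, followed by UBTF at 33.2, TAF1C at 33.1, RRN3 at 22.2, TBP at 16.5, TCOF1 at 13.2, TAF1A at 4.26, TAF1B at 4.10 and TTF1 at 1.90 TPM. In these libraries UBTF and TAF1C overlapped, as did TBP and TCOF1, and TAF1A and TAF1B. In controls UBTF was first at 62.2 TPM, followed by TCOF1 at 50.3, TAF1D at 35.97, TAF1C at 24.2, TBP at 17.7, RRN3 at 15.9, TAF1B at 4.19, TAF1A at 3.40 and TTF1 at 2.23 TPM. There TBP overlapped RRN3, TAF1B overlapped TAF1A, and TAF1A overlapped TTF1. TCOF1 thus stood sixth after BMH-21 and second in controls.

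Ratios between transcripts of the same library do not depend on how libraries are scaled to each other. The ratio of RRN3 to UBTF was 0.735, 0.697 and 0.592 in BMH-21 replicates 1 to 3, against 0.200, 0.273 and 0.286 in control replicates 1 to 3. This was 2.69-fold higher after BMH-21 by the mean of log2 ratios. The summed TAF1A, TAF1B, TAF1C and TAF1D level was 2.58 to 2.92 times that of UBTF after BMH-21. In controls it was 0.977 to 1.15 times that of UBTF, so the ratio was 2.53-fold higher after BMH-21. Most of the sum was TAF1C and TAF1D, neither of which was called. The ratio of TCOF1 to UBTF was 0.363 to 0.413 after BMH-21 and 0.757 to 0.888 in controls, so treacle messenger RNA was lower also relative to UBTF, by 2.05-fold. TBP relative to the summed TAFs was 0.173 to 0.198 after BMH-21 and 0.251 to 0.279 in controls.

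Of 8 such ratios, 7 did not overlap between the groups, where 51.5% of single genes tested did not. The share among other pairs of genes was not measured. Most of the ratios contain UBTF or TCOF1, the called genes, and so restate in part their lower levels. The TAF1A to TAF1B ratio separated narrowly, at 0.830 to 1.34 after BMH-21 and 0.804 to 0.817 in controls. For each of the 7 without overlap, the exact two-sided permutation test over 6 libraries gave p = 0.1. That is the smallest p it can give with 3 libraries a group, and became 0.11 after Benjamini-Hochberg adjustment over the 8. No ratio could therefore pass the threshold. The exception was TAF1D to TAF1C, at 1.18 to 1.95 after BMH-21 and 1.00 to 1.78 in controls (exact permutation p = 0.9).

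**Figure D3:**
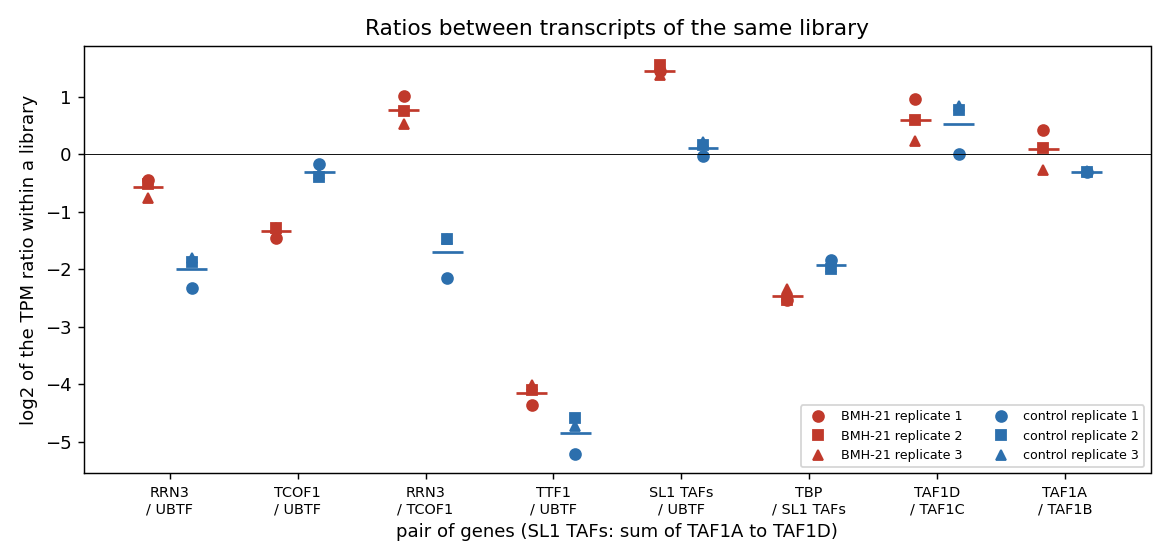
Log2 of the ratio of TPM values within each library for 8 pairs, with BMH-21 libraries (red) left of control libraries (blue) and a line at the group mean. The RRN3 to UBTF and SL1 TAFs to UBTF ratios are higher in every BMH-21 library than in any control, and the TCOF1 to UBTF ratio is lower.

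The 2 libraries that stood apart did so over all genes tested. Their mean squared deviations from the group means were 0.070 (BMH-21 replicate 3) and 0.059 (control replicate 1), against 0.027 to 0.033 in the others. Within the BMH-21 group, replicate 3 was the highest library for 8 of the 9 genes, with TAF1D as the exception. Within the controls, replicate 1 was the lowest for 7 of the 9, with TAF1C and TCOF1 as the exceptions. The shares of all genes for which these libraries were highest or lowest were not counted, so whether this is particular to the 9 is not known. An alternative without both libraries was added once the data had been seen. There UBTF, TCOF1, TAF1B, TBP and TTF1 were lower and RRN3 and TAF1D were higher, 7 of 9. In that setting 58.9% of all genes were called, and their median log2 fold change was -0.07. The part of mitochondrial share in these differences was not tested.

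Other genes of the machinery did not share 1 direction. Of 55 genes on 6 lists of partners, 53 had enough signal to test, with 14 called higher, 7 called lower and 32 not called (39.6% called, against 36.4% of all genes), and a median log2 fold change of 0.18. Among 13 RNA polymerase I subunits, 2 were higher and 2 lower (30.8% called, against 36.4% of all genes), with a median of 0.06. POLR1B, the second largest subunit, had 40.7 ± 3.82 TPM after BMH-21 and 26.2 ± 6.56 TPM in controls (SD, n = 3 each). POLR1D, shared with RNA polymerase III, had 126 ± 3.41 TPM after BMH-21 and 175 ± 10.5 TPM in controls, and POLR2K, shared by all nuclear RNA polymerases, rose by 0.39 on the log2 scale. The counts for this list ran from 0 to 7 higher and from 1 to 5 lower over the 16 alternatives.

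Of 6 listed treacle partners, 5 were tested, and 2 were lower and 0 higher, where 16.9% of all genes were lower. TOPBP1, a checkpoint protein that treacle brings to broken rDNA, had 0.75 ± 0.34 TPM after BMH-21 and 3.08 ± 0.51 TPM in controls (SD, n = 3 each). Its log2 fold change was -1.23 (limma adjusted p = 0.0011). At 0.53, 0.59 and 1.14 TPM in BMH-21 replicates 1 to 3, it met the filter on low values through the controls, where it was higher. Among genes with a mean TPM of at least 5, 1 partner was called lower. NOP56, a core protein of box C/D small nucleolar ribonucleoproteins, had 218 ± 26.0 TPM after BMH-21 and 301 ± 33.0 TPM in controls. NOLC1, a nucleolar phosphoprotein related to treacle, had a log2 fold change of 0.28 that did not pass (limma adjusted p = 0.28). It is named after its value was seen. KBTBD8, an adaptor of the ubiquitin ligase that modifies treacle, was below the filter on low values.

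The 5 t-UTP proteins belong to the small subunit processome and are needed for rDNA transcription. Of these, 3 were higher and 0 lower (60% called, against 36.4% of all genes, with 19.4% higher). With 5 genes this is a description of the list. UTP15, WDR43 and NOL11 rose by 0.83, 0.77 and 0.63 on the log2 scale (limma adjusted p = 0.013, 0.0087 and 0.0093). HEATR1 and UTP4, the remaining members, named after their values were seen, were at -0.11 and -0.04, short of the threshold. Among 11 regulators of rDNA chromatin and elongation, 2 were higher and 0 lower (18.2% called, against 36.4% of all genes), with a median of 0.20. SIRT7, a deacetylase that activates RNA polymerase I, had 49.8 ± 4.296 TPM after BMH-21 and 37.7 ± 1.08 TPM in controls (SD, n = 3 each). CAVIN1, which releases finished transcripts, had 115 ± 3.26 TPM after BMH-21 and 91.9 ± 0.59 TPM in controls.

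TBP is shared with complexes of the other polymerases. Of 14 TFIID TAFs, 4 were higher, 2 lower and 8 did not pass (42.9% called, against 36.4% of all genes), with a median of 0.25. TAF13 had 36.7 ± 6.57 TPM after BMH-21 and 13.7 ± 2.72 TPM in controls (SD, n = 3 each), and TAF7 rose by 0.81 while TAF6 fell by 0.68 on the log2 scale. Of 6 further TBP partners and regulators, 5 were tested, and 3 were higher and 1 lower, where 19.4% of all genes were higher and 16.9% lower. BRF1, a subunit of TFIIIB, fell by 0.83 (limma adjusted p = 0.0068). The TBP-binding repressor DR1 and the TBP paralog TBPL1 rose by 0.63 and 0.61 (limma adjusted p = 0.021 and 0.022). Over the 16 alternatives the count higher on this list ran from 0 to 3, with 0 when BMH-21 replicate 2 was left out. The count lower stayed at 1.

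**Figure D4:**
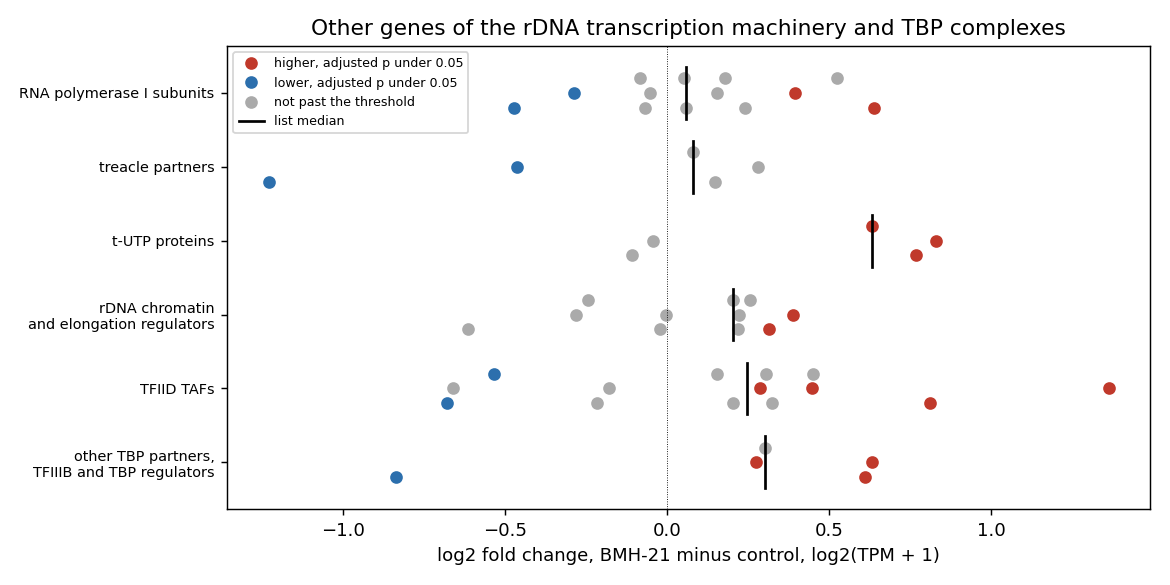
Log2 fold change, BMH-21 minus control, of the 53 tested genes on 6 lists, coloured by call, with a line at each list's median. The medians lie between 0.06 for RNA polymerase I subunits and 0.63 for t-UTP proteins, and calls in both directions occur among polymerase subunits, TFIID TAFs and other TBP partners.

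For the called genes, the closest patterns among 61 other genes of these lists were sought by Euclidean distance of the 6 centred log2(TPM + 1) values. UBTF lay nearest to TAF6 (0.39) and TOPBP1 (0.43). TCOF1 lay nearest to TOPBP1 (0.83) and then UBTF (1.22). TOPBP1 was near the floor after BMH-21, which limits what its distances show. This distance grows with any gap in fold change, so it reflects the size of each gene's change as well as its pattern over libraries.

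TAF1D and its neighbours share a locus. The gene spans 54.4 kb on chromosome 11 (93729948 to 93784391, minus strand) in GENCODE release 29, and overlaps CEP295, C11orf54 and MED17 on the other strand. The promoter stretch shown for TAF1D (93741471 to 93741695) lies inside this span, which thus reaches upstream of the start shown. Which TAF1D transcripts overlap these neighbours was not measured. C11orf54 had 12.6 to 14.8 TPM after BMH-21 and 3.09 to 6.60 TPM in controls, a pattern in the same direction as TAF1D. MED17 had 20.4 to 21.9 TPM after BMH-21 and 14.4 to 21.2 TPM in controls. No strand setting is stated in the sources used here, and whether the exons of these genes overlap was not measured.

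**Figure D5:**
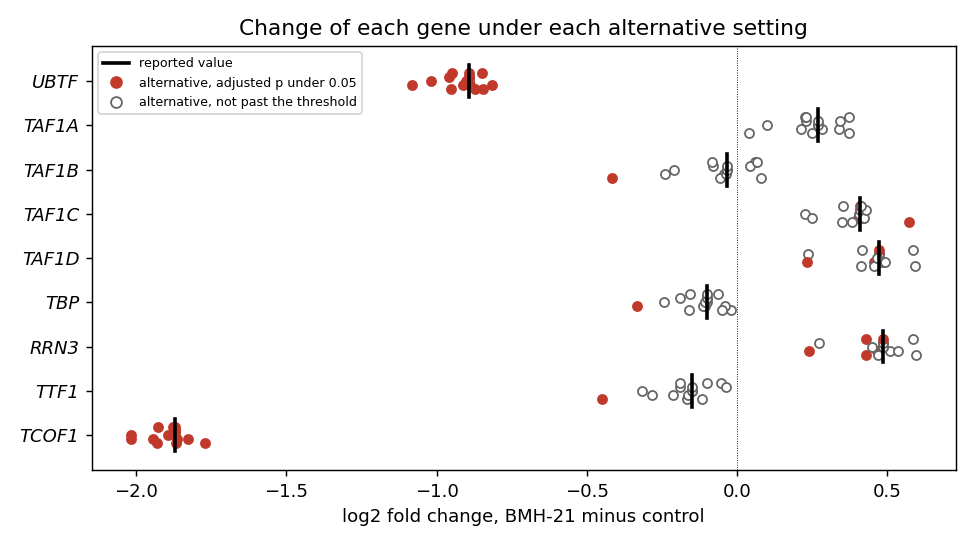
Log2 fold change of each gene, BMH-21 minus control, as reported (black line) and under each alternative (circles, filled where the adjusted p was under 0.05). UBTF (-1.08 to -0.82) and TCOF1 (-2.02 to -1.77) passed as lower under all 16 alternatives, and the other 7 genes passed in some or in none.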

How the data were processed

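RNA from 6 HCT116 libraries (3 BMH-21, 3 control) was sequenced. The deposited values are TPM per gene and library, made by the authors. Per the submitters' processing notes, STAR, Salmon and GRCh38 were used, with no versions or roles named. The sources used here do not give the annotation, strand setting or filters. By label the molecule is polyA RNA, but the protocol has ribosomal RNA removed with Ribo-Zero. Groups follow the treatment label.

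limma 3.58.1 in R 4.3.3 was fitted to log2(TPM + 1), pseudocount 1, with a variance trend and no covariate, over the 12041 genes with at least 1 TPM in at least 3 libraries (the smaller group's size where libraries were left out). Tests were two-sided, with Benjamini-Hochberg adjustment and a threshold of 0.05. Fold changes on this scale understate those of low genes. Ratios were tested with scipy 1.17.1. The fit was tested on simulated data. The trimmed mean and median scalings were computed directly. Gene positions, 1-based, and 31-base stretches come from GENCODE release 29, promoters from RefSeq.

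The 9 genes, lists and ratios were chosen with earlier results of these data known. All 9 are named, with near copies, CDKN1A and up to 3 called genes per list, or the 2 most abundant where none is called. The main fit did not pair samples by replicate number, and whether same-numbered libraries were prepared together is unknown.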

Additional observations from a re-analysis of the deposited data

How the results depend on the processing

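UBTF and TCOF1 stayed lower, with adjusted p under 0.05, under all 16 alternatives (pseudocount, filters, scalings, no variance trend, replicate block, libraries left out). The number of the 9 genes called higher was 0 as reported, where 19.4% of all genes were higher. It was 1 with a trimmed mean scaling (19.6% of all genes) and 1 with medians of ratios (19.5%). Quantile normalization gave 3, namely RRN3, TAF1C and TAF1D (24.7% of all genes), and the replicate block gave 3 (20.8%). The number was 0 to 1 when 1 library was left out (13.4% to 18.9% of all genes). Without control replicate 1 and BMH-21 replicate 3 together, 2 of the 9 genes were higher and 5 lower. In that setting 24.2% of all genes were higher and 34.7% lower. There 4215 genes were lower against 2040 as reported, and 20 list genes were higher against 14 and 19 lower against 7. With 1 library left out, 1519 to 2857 genes were lower. With 1 library left out, list genes higher ran from 9 to 17 and lower from 5 to 12, with 9 higher without BMH-21 replicate 1 or 2 and 12 lower without BMH-21 replicate 3. TAF1C, 0.41 as reported, was 0.57 without BMH-21 replicate 1 (adjusted p = 0.022, past the threshold) and 0.23 without BMH-21 replicate 3 (adjusted p = 0.13, not past it), and each of TAF1C and TAF1D passed in 3 of 16 alternatives. TAF1B, -0.03 as reported, turned to 0.06 without BMH-21 replicate 1 and to 0.080 without BMH-21 replicate 2. It was 0.04 without control replicate 2 and 0.07 without control replicate 3, and none of these values passed the threshold. TAF1B reached -0.42 without control replicate 1 and BMH-21 replicate 3 together (limma adjusted p = 0.012). The log2 difference of the TAF1D to TAF1C ratio, 0.06, ran from -0.20 to 0.24 with 1 library left out, turning to -0.12 without BMH-21 replicate 1 and -0.20 without control replicate 1, and was -0.02 without control replicate 1 and BMH-21 replicate 3. Causes were not tested. The share of higher calls among all calls was 53.4% as reported and 41.1% without control replicate 1 and BMH-21 replicate 3.

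With the replicate block, RRN3, TAF1C and TAF1D passed as higher (adjusted p = 0.026, 0.039 and 0.016). Same-numbered libraries had correlations of deviations of 0.044, -0.14 and 0.019, against -0.098 to 0.12 for differently numbered ones. With 3 libraries a group, these values cannot decide whether same-numbered libraries were prepared together. TAF1A, TAF1B and TTF1 were not tested at a mean TPM of at least 5. Depth is unknown, and TPM near 1 to 5 limits what can be seen for these 3.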
